A study of Mus musculus with 4 samples.

Results

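The genes described here are the mouse Wnt pathway genes, from the Wnt ligands and Wls, their carrier to the cell surface, through the receptors to the β-catenin machinery and its targets. Genes were matched by symbol to the Wnt, Fzd, Dkk, Sfrp, Rspo, Lgr, Lrp5/6, Axin, Nkd and Tcf/Lef families and to Dkkl1, Sp5, Wls, Porcn, Notum, Ctnnb1, Apc, Rnf43 and Znrf3, and 63 of the 50559 genes in the deposited table matched. Their mRNA levels were measured by poly(A)+ RNA-seq in E14 mouse embryonic stem cells (ESCs) that received Cnot1 siRNA (siCnot1) or, as the control, siRNA without a target (siNT). The siRNAs were used at 150 nM for 48 h, and each group had 2 biological replicates. Both groups grew on gelatin in medium with LIF and serum replacement. The study worked with ESCs carrying a MERVL-driven tdTomato reporter, while the labels of these libraries name only the E14 line, and which of the Cnot1 siRNAs was used is not given in the sources used here.

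Wnt proteins are lipid-modified by Porcn in the endoplasmic reticulum and carried to the cell surface by Wls, without which they are not secreted. At the receiving cell they bind a Frizzled receptor and an LRP5/6 co-receptor, which stops the Axin and APC destruction complex from marking β-catenin for degradation and lets β-catenin act with TCF/LEF factors on target genes, several of which feed back on the pathway. In mouse ESCs, Wnt signalling is known to favour self-renewal, largely by relieving repression by Tcf7l1. The CCR4-NOT complex, built around the CNOT1 protein, shortens poly(A) tails and so starts the decay of many mRNAs.

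The 4 libraries held 32135824 to 32557440 counts on genes, and 3 counts, taken as the floor, stood for 0.0896 to 0.0964 normalized CPM (CPM after TMM scaling), a floor that covers counting error only. Cnot1, the targeted gene, was at 913 and 986 normalized CPM in siNT and 185 and 192 in siCnot1, a log2 fold change of -2.33 (95% interval -2.45 to -2.21, adjusted p = 2.37e-18 by edgeR's quasi-likelihood test). The ESC markers Pou5f1, Nanog, Sox2, Esrrb, Zfp42 and Klf4 summed to 4470 and 4364 normalized CPM in siNT and 3760 and 3984 in siCnot1. Each p-value rests on the spread between 2 biological replicates per group, moderated by the spread of the other genes tested. With 2 libraries per group, the values of a group often lie wholly above or below the other without a true difference. Such separation is therefore not read as a change, and its share over all tested genes is not given here. In these bulk samples, fewer cells of a type and less RNA per cell cannot be told apart.

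Wnt pathway mRNAs were more often higher than lower after Cnot1 depletion. Of the 63 genes, 50 had enough counts to be tested, and 25 of the 50 rose while 3 fell (adjusted p under 0.05, edgeR with Benjamini-Hochberg adjustment over 18144 genes). Among all tested genes, 15% rose and 14.7% fell. The median log2 fold change was 0.58 over the 50 genes and 0.0084 over all tested genes. The genes that rose were Wls, the ligands Wnt3, Wnt5a, Wnt8b and Wnt11, both tested R-spondins, both tested Lgr receptors, 6 Frizzled receptors, Lrp5 and Lrp6, the secreted inhibitors Dkk3, Sfrp2, Sfrp5 and Notum, and Axin2, Apc, Nkd1 and Tcf7l1. Those that fell were Wnt3a, Wnt7b and Ctnnb1. At the thresholds of the study (p up to 0.05 before adjustment, and a log2 fold change of 1 or more in size), 13 of the 50 lay above and 2 below, against 6.18% and 1.8% of all tested genes.

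Entry into the test bears on these counts and on the median log2 fold change. Of the 50 genes, 5 (Wnt3, Wnt5a, Wnt8b, Rspo2 and Rnf43) had under 10 counts in both siNT libraries and were tested only through their siCnot1 counts. Of these, 4 rose, and 39.2% of all 406 such genes rose. Of the other 45 genes 21 rose and 3 fell, against 14.4% and 15.0% of the 17738 other genes tested. Level and length also moved with the calls. Among all tested genes, 10.9% rose and 3.02% fell below 3 mean normalized CPM, 19.9% and 10.7% from 3 to 30, and 14.5% and 29.7% above. In the same classes 9 of 20, 11 of 18 and 5 of 12 Wnt pathway genes rose, and 1 fell in each. Of all genes with exons totalling 4000 bases or more, 20.9% rose, and so did 14 of the 26 Wnt pathway genes of that length. Scaling by library totals in place of TMM raised the median of all genes from 0.0084 to 0.12 on the log2 scale. It also raised the share of higher calls among all calls from 50.5% to 71.9%, and gave 30 higher and 2 lower Wnt pathway genes.

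**Figure D1:**
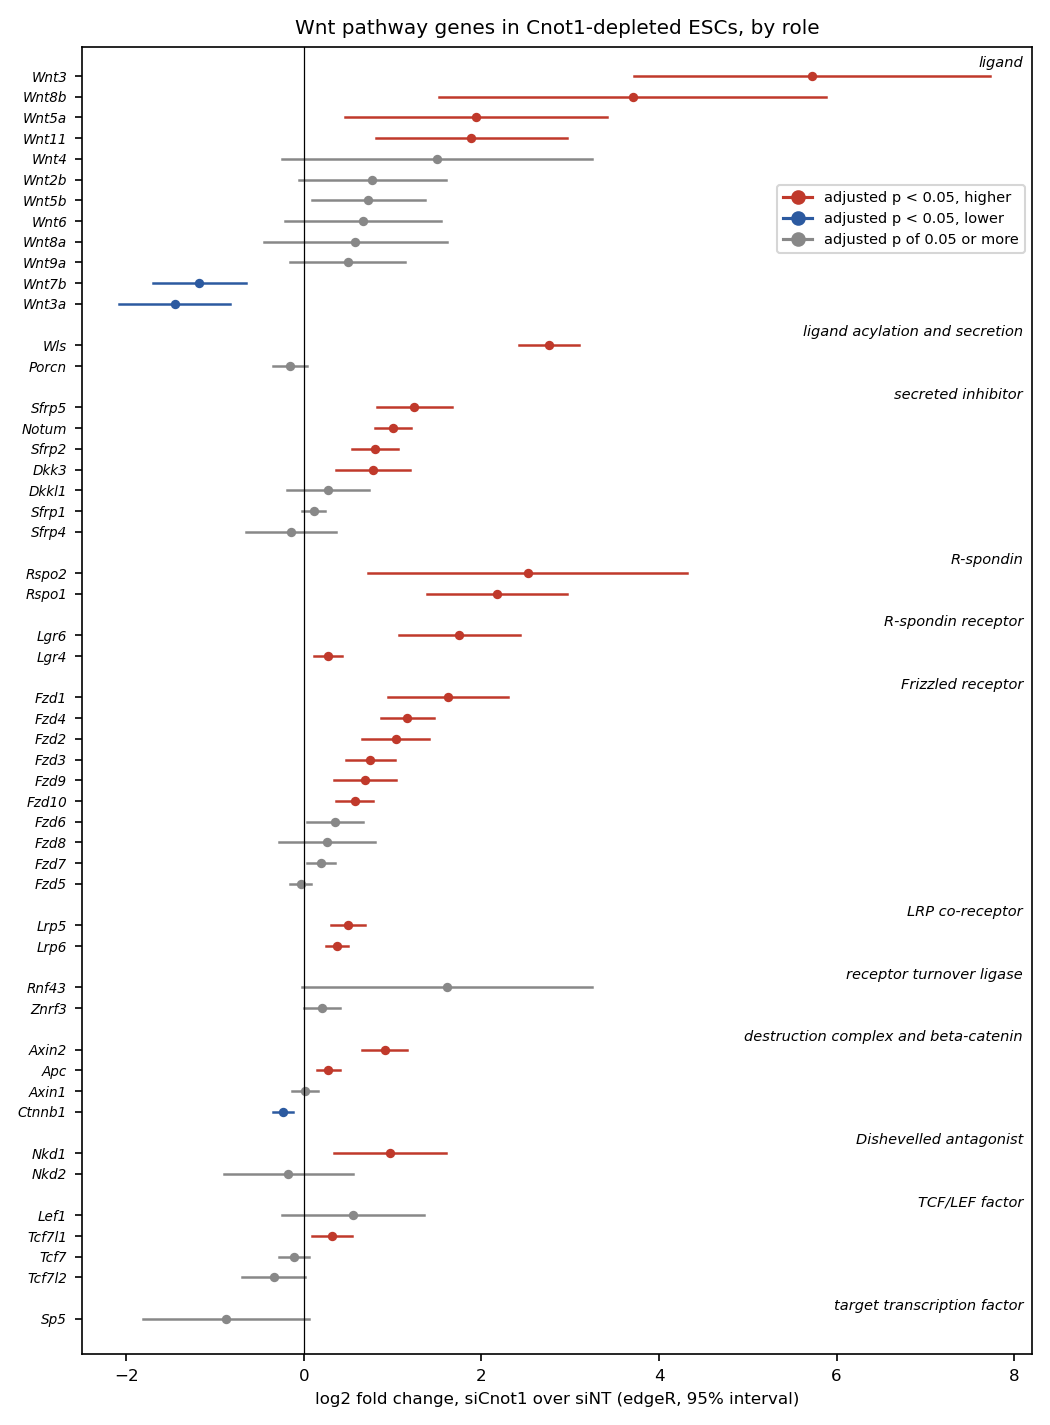
Log2 fold change (siCnot1 over siNT, x axis) of the 50 tested Wnt pathway genes, grouped by role, with points for the edgeR estimate and lines for its 95% interval. Red marks the 25 genes that rose, blue the 3 that fell and grey the 22 with an adjusted p of 0.05 or more.

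Wls had the smallest adjusted p of the 50 genes and ranked 8 by p among all tested genes. It encodes the multipass membrane protein that binds acylated Wnt proteins and escorts them to the plasma membrane, and lies on chromosome 3 (159545287 to 159644302 in the positions of the deposited table, plus strand). Wls had 88 and 76 counts in siNT against 635 and 561 counts in siCnot1, or 2.83, 2.42, 19.0 and 16.8 normalized CPM. Both siCnot1 libraries were far above both siNT libraries. The fold change was 6.79 (log2 2.76, 95% interval 2.43 to 3.10, adjusted p = 4.58e-11), and over the alternatives the log2 value lay between 2.66 and 2.87. Per length, Wls went from 0.49 and 0.42 FPKM (normalized CPM per kb of exon) to 3.28 and 2.90. Porcn, the acyltransferase that acts on Wnt proteins before Wls, was at 36.6 and 35.2 normalized CPM in siNT and 31.3 and 33.0 in siCnot1. Its difference did not pass the test (log2 -0.16, 95% interval -0.35 to 0.04, adjusted p = 0.221).

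The promoters of Wls and Wnt3, which had the lowest adjusted p and the highest ratio among the 50 genes, are shown with those of Axin2 and Sp5, which are direct targets of β-catenin and TCF/LEF factors in many tissues. Axin2 rose and Sp5 did not pass the test. Each window holds 300 bases around the start of the gene in RefSeq (GRCm38.p6), most of them upstream of it. Capitals mark CTTTG, the core of the TCF/LEF motif, on either strand, extended to 7 letters where A or T follows it at both next positions, so that each 7-letter form contains the core.
Wls promoter, chr3:159839400-159839699, plus strand: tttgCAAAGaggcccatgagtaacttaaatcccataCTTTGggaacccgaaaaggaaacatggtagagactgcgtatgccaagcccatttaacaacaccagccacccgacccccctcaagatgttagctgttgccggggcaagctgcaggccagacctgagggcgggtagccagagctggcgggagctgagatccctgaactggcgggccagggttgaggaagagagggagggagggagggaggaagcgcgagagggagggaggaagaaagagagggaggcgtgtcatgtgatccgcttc
Wnt3 promoter, chr11:103773925-103774224, plus strand: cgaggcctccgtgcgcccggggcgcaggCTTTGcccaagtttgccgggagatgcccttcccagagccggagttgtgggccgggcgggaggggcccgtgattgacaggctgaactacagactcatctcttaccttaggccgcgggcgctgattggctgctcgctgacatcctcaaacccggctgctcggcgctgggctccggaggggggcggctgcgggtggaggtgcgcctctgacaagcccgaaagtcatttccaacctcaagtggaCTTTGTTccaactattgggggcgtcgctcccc
Axin2 promoter, chr11:108920099-108920398, plus strand: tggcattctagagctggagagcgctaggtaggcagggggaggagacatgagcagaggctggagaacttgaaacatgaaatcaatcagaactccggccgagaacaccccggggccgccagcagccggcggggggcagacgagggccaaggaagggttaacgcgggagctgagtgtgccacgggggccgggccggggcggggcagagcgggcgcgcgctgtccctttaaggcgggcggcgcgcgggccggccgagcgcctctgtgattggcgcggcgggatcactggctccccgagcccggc
Sp5 promoter, chr2:70474673-70474972, plus strand: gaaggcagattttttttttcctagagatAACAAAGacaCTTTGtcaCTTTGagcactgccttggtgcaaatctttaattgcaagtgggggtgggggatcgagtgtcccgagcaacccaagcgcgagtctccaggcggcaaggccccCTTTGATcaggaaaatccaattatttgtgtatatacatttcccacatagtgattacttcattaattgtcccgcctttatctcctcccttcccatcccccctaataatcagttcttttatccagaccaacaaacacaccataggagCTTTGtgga
The Wls window held 2 cores and no 7-letter form, the Wnt3 window 2 cores of which 1 was CTTTGTT, the Axin2 window none, and the Sp5 window 5 cores with 2 of the 7-letter form. Such matches are common, since 53.9% of 32851 RefSeq promoter windows held the core and 16.9% a 7-letter form. Counted per gene, these shares were 57.4% and 18.9% of 27025 genes. Windows were found for 41 of the 63 genes, of which 17 (41.5%) held the core and 8 (19.5%) a 7-letter form. Of the 16 genes with a window that rose, 7 held the core and 2, Wnt3 and Wnt11, a 7-letter form.

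CCR4-NOT is known to be brought to mRNAs by proteins that bind their 3′ UTRs, among them the Pumilio proteins, which bind TGTANATA, and proteins that bind AU-rich elements, whose core is TATTTAT. Both motifs were searched on the sense strand of the longest annotated 3′ UTR of each tested gene (GENCODE M21, GRCm38). The sites below, with 8 bases on either side and the motif in capitals, are from Wls, Wnt3 and the receptors and inhibitors whose calls held under all alternatives, with Axin2 for the AU-rich core. Not all sites of these genes are printed. Wnt3, Fzd4 and Lrp6 also held TATTTAT, Wnt3 and Sfrp2 a further TGTANATA, and Axin2 a further TATTTAT.
Wls TGTANATA at base 804 of the 3′ UTR, chr3:159935156-159935179, plus strand: aaaatgaaTGTAAATAtgcacccc
Wls TATTTAT at base 458 of the 3′ UTR, chr3:159934810-159934832, plus strand: cttttttcTATTTATatcaccaa
Wnt3 TGTANATA at base 795 of the 3′ UTR, chr11:103816855-103816878, plus strand: gatgacctTGTAAATAggtcagat
Fzd2 TGTANATA at base 211 of the 3′ UTR, chr11:102606647-102606670, plus strand: attaaaacTGTAAATAgtctttgt
Fzd4 TGTANATA at base 1880 of the 3′ UTR, chr7:89410232-89410255, plus strand: gcaagttcTGTAGATAtctgatat
Lrp6 TGTANATA at base 39 of the 3′ UTR, chr6:134450732-134450755, minus strand: ccgggacaTGTAAATAcacatctg
Sfrp2 TGTANATA at base 831 of the 3′ UTR, chr3:83774245-83774268, plus strand: accgacacTGTAAATAtttcagat
Axin2 TATTTAT at base 236 of the 3′ UTR, chr11:108949623-108949645, plus strand: gcctgaacTATTTATtcaaaaca
TGTANATA was present in 15 of the 25 genes that rose (60%), in 10 of the 22 that were not called (45.5%), in 0 of the 3 that fell and in 25.5% of 13952 tested genes with a 3′ UTR. TATTTAT was present in 14 of the 25 (56%), in 8 of the 22 (36.4%), in 1 of the 3 and in 29.4% of tested genes. The 3′ UTRs had a median of 1733 bases in the genes that rose, 1666.5 in the 22 not called and 1122 over tested genes. Per kb of 3′ UTR the genes that rose held 0.361 TGTANATA and 0.413 TATTTAT sites. The 22 not called held 0.2995 of each, against 0.232 and 0.290 over tested genes. Rspo1, Sfrp5 and Notum, which also rose under all alternatives, held neither motif. A role of these motifs in the changes was not tested.

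The make-up of the Wnt ligand mRNAs differed between the groups, while their sum was similar. The 19 Wnt genes summed to 5.37 and 5.05 FPKM in siNT and 5.69 and 5.57 in siCnot1. Wnt3a and Wnt7b, which led in siNT, made up 55.6% and 56.8% of that sum in siNT and 20.9% and 20.7% in siCnot1. Wnt3a, a ligand widely used to activate β-catenin signalling, was at 4.6 and 4.08 normalized CPM in siNT and 2.15 and 1.02 in siCnot1, below both control libraries (log2 -1.45, 95% interval -2.07 to -0.83, adjusted p = 0.000705). Wnt7b, a ligand known from lung and vascular development, was at 5.82 and 6.13 in siNT and at 1.82 and 3.47 in siCnot1 (log2 -1.17, 95% interval -1.70 to -0.65, adjusted p = 0.000977). The siCnot1 replicates were far apart for both genes, with Wnt3a lower in replicate 2 and Wnt7b lower in replicate 1.

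Wnt3, which is needed for the primitive streak to form, had 1 and 0 counts in siNT and 24 and 46 in siCnot1 (0.0321, 0, 0.717 and 1.37 normalized CPM). The ratio of the summed counts was 65.3 with an exact 95% interval of 11.3 to 2615 that covers counting error only, and the adjusted p was 8.59e-05. Its exons share 174 bases with those of Wnt9b on the opposite strand of chromosome 11, and Wnt9b had 0 to 2 counts in any library. Wnt8b had 0 and 2 counts in siNT and 12 and 19 in siCnot1, a ratio of 14.5 (exact 95% interval 3.68 to 125, adjusted p = 0.00974). Wnt11, a ligand of planar polarity signalling, had 10 and 13 counts in siNT and 61 and 31 in siCnot1 (log2 1.89, 95% interval 0.82 to 2.96, adjusted p = 0.00759). Wnt5a, the best known ligand of β-catenin-independent signalling, had 6 and 4 counts against 18 and 24 (log2 1.94, 95% interval 0.47 to 3.42, adjusted p = 0.0427). In siCnot1, Wnt3 stood at 0.210 and 0.403 FPKM, below Wnt7b (0.412 and 0.785 FPKM) in both libraries. The other 6 tested ligands had log2 values between 0.49 and 1.5, none of which passed the test, although Wnt5b was called under library totals (log2 0.83, adjusted p = 0.0431). One of them, Wnt9a, lies 16.1 kb from Wnt3a on chromosome 11 and was at 0.49 (adjusted p = 0.262), while Wnt3a fell.

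Of the ligand calls, that of Wnt3 held in all 11 alternatives in which it was tested. Wnt3 did not enter the test under the 1 CPM filter. In the main fit it was tested only through its siCnot1 counts, as were Wnt5a and Wnt8b. The calls of the other 5 ligands did not hold in all alternatives, with the direction kept throughout. Wnt3a lost its call without siNT replicate 1 or siNT replicate 2 (adjusted p = 0.126 and 0.0794, range over alternatives 0.000335 to 0.126), Wnt7b without either of these or without siCnot1 replicate 1 (0.118, 0.118 and 0.0510, range 0.000508 to 0.118). Wnt11 lost it without siNT replicate 1, siNT replicate 2 or siCnot1 replicate 1 (0.163, 0.107 and 0.243, range 0.00519 to 0.243) and Wnt8b without the same libraries (0.171, 0.0681 and 0.0764, range 0.00522 to 0.171). Wnt5a lost it without any of the 4 libraries (0.154, 0.212, 0.160 and 0.265, range 0.0325 to 0.265) with DESeq2 (0.17), with limma-voom (0.0551) and under the replicate block (0.0667). All 5 also lost it without a filter on low counts (Wnt3a 0.0585, Wnt7b 0.0705, Wnt11 0.0678, Wnt8b 0.104 and Wnt5a 0.101).

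**Figure D2:**
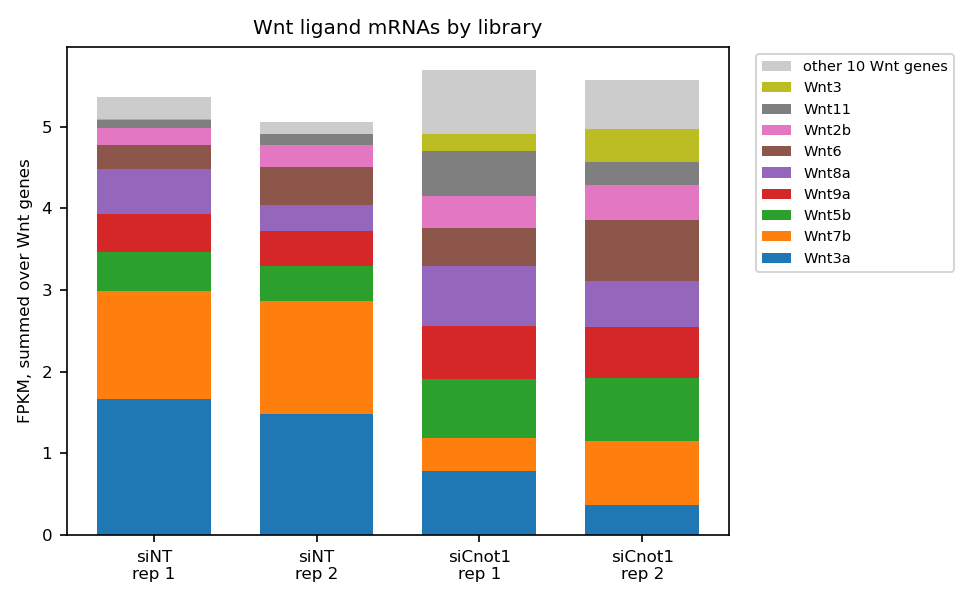
Summed FPKM of the 19 Wnt ligand genes in each library (y axis), stacked by gene, with the other 10 joined in light grey. The stacks are similar in height, from 5.05 to 5.69 FPKM, while the blue and orange parts at the bottom, Wnt3a and Wnt7b, shrink from over 55% of the stack in siNT to about 21% in siCnot1.

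R-spondins are secreted proteins that, through Lgr receptors, protect Frizzled receptors from the ligases Rnf43 and Znrf3. The 4 R-spondin genes summed to 0.325 and 0.430 FPKM in siNT and 1.68 and 1.44 in siCnot1. Rspo1 accounted for most of this, at 0.418 and 0.734 normalized CPM in siNT and 2.72 and 2.51 in siCnot1 (fold 4.51, log2 2.17, 95% interval 1.39 to 2.96, adjusted p = 0.000123). Rspo2 had 1 and 4 counts in siNT and 16 and 16 in siCnot1 (log2 2.52, 95% interval 0.73 to 4.31, adjusted p = 0.0305), Rspo3 had no counts and Rspo4 had 2 to 16 and was not tested. Lgr4, the abundant receptor of the family here, was at 65.4 and 68.4 normalized CPM in siNT and 86.0 and 75.9 in siCnot1 (log2 0.28, 95% interval 0.12 to 0.43, adjusted p = 0.0069). Lgr6 was at 0.739 and 1.05 in siNT and at 3.16 and 2.90 in siCnot1 (fold 3.37, log2 1.75, 95% interval 1.07 to 2.43, adjusted p = 0.000257), while Lgr5, a stem cell marker in the gut, had 0 to 2 counts. In each of the called genes both siCnot1 libraries lay above both siNT libraries. The ligases did not pass the test, with Znrf3 at 24.9 and 27.3 normalized CPM against 29.1 and 31.0 (log2 0.21, adjusted p = 0.130) and Rnf43 at 6 and 3 counts against 19 and 11 (log2 1.61, adjusted p = 0.133).

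Rspo1 kept its call in all alternatives. Rspo2 lost it without any of the 4 libraries (adjusted p = 0.240, 0.0990, 0.191 and 0.176, range over alternatives 0.0245 to 0.240). Lgr4 lost it without siNT replicate 1, siNT replicate 2 or siCnot1 replicate 1 (0.19, 0.102 and 0.249, range 0.000435 to 0.249) and Lgr6 without siNT replicate 1 (0.0506, the highest over its alternatives, the lowest being 0.00011). Without a filter on low counts Rspo2 (0.125) and Lgr4 (0.098) also lost it. Znrf3 was called under library totals (0.0203).

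Receptor mRNAs rose in 10 of 14 tested genes (Frizzled, LRP and Lgr) and fell in 0, against 15% and 14.7% of all tested genes. Most of these receptors had exons totalling 4000 bases or more, and 20.9% of all tested genes of that length rose. The 6 higher Frizzled genes became 7 under upper-quartile scaling and 8 under library totals. All 10 Frizzled genes were detected, and in FPKM Fzd5, Fzd7 and Fzd10 led in every library. Fzd5, at 25 and 26.2 FPKM in siNT and 24.6 and 25.4 in siCnot1, overlapped between groups and its log2 difference was -0.04 (95% interval -0.16 to 0.08, adjusted p = 0.697). Under library totals that value was 0.0708. Fzd7 was at 15.5 and 13.6 FPKM in siNT and 17.0 and 16.2 in siCnot1 (log2 0.19, adjusted p = 0.0572), so the groups did not overlap but the difference did not pass the test. It did under upper-quartile scaling, library totals and the 1 CPM filter (0.0361, 0.00386 and 0.0288). Fzd10 rose, from 7.63 and 7.68 FPKM to 10.8 and 12 (log2 0.57, 95% interval 0.37 to 0.78, adjusted p = 0.00012). Next in siNT were Fzd9 (2.56 and 2.54 FPKM) and Fzd6 (2.15 and 2.25). Fzd2, Fzd3, Fzd4 and Fzd8 followed between 0.692 and 1.28 FPKM with overlapping values, and Fzd1 was lowest at 0.374 and 0.175.

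The larger fold changes were in less abundant Frizzled genes, although Fzd8 was only at log2 0.26. The median log2 fold change of all tested genes also differed by level. It was 0.18 below 3 mean normalized CPM, 0.052 from 3 to 30 and -0.069 above. Fzd4, the receptor of Norrin as well as of Wnts, was at 9.26 and 6.83 normalized CPM in siNT and 17.2 and 18.9 in siCnot1 (fold 2.24, log2 1.16, 95% interval 0.87 to 1.46, adjusted p = 1.77e-06). Its exons share 338 bases with Tmem135 on the opposite strand, which had 2341 counts in siNT and 2525 in siCnot1, and whether reads were assigned by strand is not given in the sources used here. Fzd2 was at 3.92 and 4.18 in siNT and 7.91 and 8.73 in siCnot1 (fold 2.05, log2 1.04, 95% interval 0.66 to 1.42, adjusted p = 0.000133). Fzd1 was at 1.64 and 0.766 in siNT and 4.24 and 3.17 in siCnot1 (log2 1.62, adjusted p = 0.000557). Fzd3, which acts in axon guidance and planar polarity, was at 11.3 and 14.8 in siNT and 24.4 and 19.6 in siCnot1 (log2 0.75, adjusted p = 0.000162), and Fzd9 at 5.40 and 5.36 in siNT and 8.90 and 8.43 in siCnot1 (log2 0.69, adjusted p = 0.00335). Together Fzd5, Fzd7 and Fzd10 made up 84.2% and 83.7% of summed Frizzled FPKM in siNT and 77.6% in each siCnot1 library. Fzd6 and Fzd8 were at log2 0.35 and 0.26 and did not pass the test, although Fzd6 was called under library totals (0.0239) and without siCnot1 replicate 1 (0.0411).

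Both LRP co-receptors rose by small amounts. Lrp6 was at 107 and 108 normalized CPM in siNT and 140 and 139 in siCnot1 (fold 1.30, log2 0.38, 95% interval 0.25 to 0.50, adjusted p = 5.09e-05). Lrp5 was at 61.9 and 51.8 in siNT and 88.3 and 72.2 in siCnot1 (log2 0.50, 95% interval 0.31 to 0.69, adjusted p = 0.000222). Neither gene overlapped between groups. The calls of Lrp6, Fzd2 and Fzd4 held in all alternatives. Lrp5 lost its call without siNT replicate 1, siNT replicate 2 or siCnot1 replicate 1 (adjusted p = 0.0575, 0.126 and 0.0814, range over alternatives 2.45e-05 to 0.126), as did Fzd9 (0.0736, 0.0671 and 0.0582, range 0.0010 to 0.0736). Fzd1 lost it without siNT replicate 2 or siCnot1 replicate 1 (0.0778 and 0.0543, range 0.000238 to 0.0778). Without siNT replicate 1, Fzd3 (0.107, range 3.03e-05 to 0.107) and Fzd10 (0.0502, range 1.68e-05 to 0.0502) lost it. Without a filter on low counts Lrp5 (0.072), Fzd1 (0.055) and Fzd3 (0.053) also lost it.

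**Figure D3:**
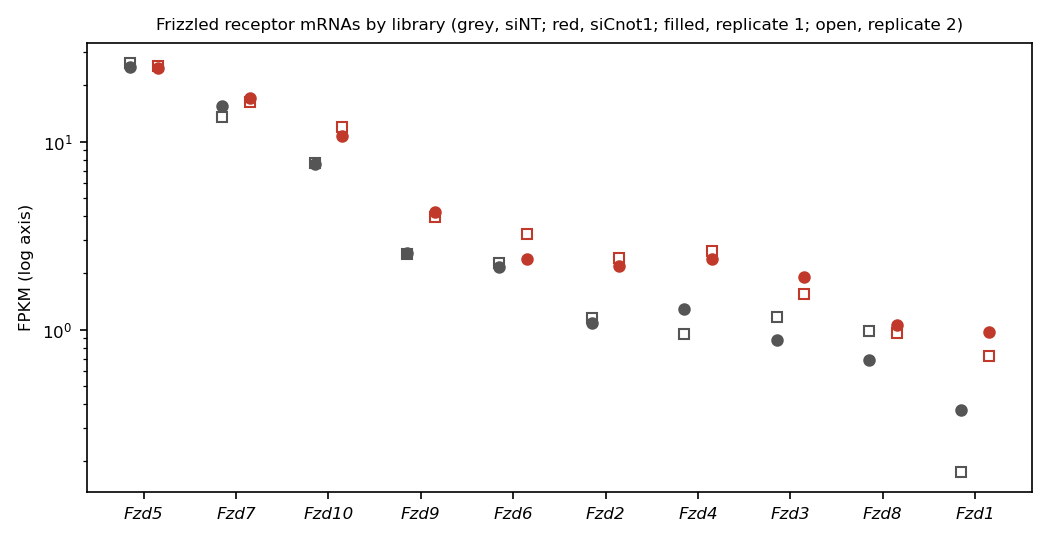
FPKM of the 10 Frizzled receptor genes (log axis) in each library, ordered by their mean in siNT, with siNT in grey and siCnot1 in red. Fzd5 lies near 25 FPKM in both groups, whereas both siCnot1 points of Fzd1, Fzd2, Fzd3, Fzd4, Fzd9 and Fzd10 lie above both siNT points. The same holds for Fzd6 and Fzd7, which did not pass the test.

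Secreted inhibitors rose in 4 of 7 tested genes and fell in 0, against 15% and 14.7% of all tested genes. Notum, the extracellular esterase that removes the lipid from Wnt proteins and is itself a Wnt target, was at 26.0 and 22.1 normalized CPM in siNT and 49.3 and 47.4 in siCnot1 (fold 2.01, log2 1.01, 95% interval 0.81 to 1.21, adjusted p = 5.77e-08). Sfrp2, a soluble relative of the Frizzled receptors, was at 9.84 and 11.2 in siNT and 18.2 and 18.4 in siCnot1 (log2 0.80, 95% interval 0.54 to 1.06, adjusted p = 3.39e-05). Sfrp5 was at 4.92 and 2.97 in siNT and 9.91 and 8.79 in siCnot1 (log2 1.25, 95% interval 0.82 to 1.67, adjusted p = 6.3e-05). For these 3 genes the calls held in all alternatives. Dkk3, a divergent member of the Dickkopf family, was at 3.86 and 4.08 in siNT and 7.73 and 5.92 in siCnot1 (log2 0.78, adjusted p = 0.00452). It lost its call without siNT replicate 1, siNT replicate 2 or siCnot1 replicate 1 (0.132, 0.0944 and 0.135, range over alternatives 0.00168 to 0.135) and when low counts were not filtered (0.0609). Sfrp1 was the most abundant inhibitor, at 24.2 and 24.8 FPKM in siNT and 27.2 and 25.8 in siCnot1, and its log2 difference of 0.11 (95% interval -0.02 to 0.24, adjusted p = 0.191) did not pass the test, except under library totals (0.00913). Dkk1, the LRP-binding inhibitor and a Wnt target, had 2 and 0 counts in siNT and 5 and 11 in siCnot1 and was not tested.

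Among the intracellular components, the destruction complex genes and Ctnnb1 were taken as a list of 4. Of these 2 rose and 1, Ctnnb1, fell, against 15% and 14.7% of all tested genes. Ctnnb1 lay above 30 mean normalized CPM, the class in which 29.7% of all tested genes fell. Axin2, the inducible scaffold of the destruction complex and the most general β-catenin target, was at 12.2 and 10.5 normalized CPM in siNT and 20.6 and 22.2 in siCnot1 (fold 1.88, log2 0.91, 95% interval 0.66 to 1.16, adjusted p = 4.5e-06), and its call held in all alternatives. Axin1, the constitutive scaffold, was at 75.7 and 71.1 in siNT and 70.9 and 77.2 in siCnot1, with overlapping groups (log2 0.01, 95% interval -0.14 to 0.16, adjusted p = 0.917). Apc, which holds β-catenin in the complex, was at 151 and 166 in siNT and 197 and 187 in siCnot1 (log2 0.28, 95% interval 0.15 to 0.40, adjusted p = 0.00149). Ctnnb1, which encodes β-catenin, was the most abundant of the 63 genes in every group. It was at 1207 and 1247 in siNT and 1026 and 1063 in siCnot1, or 85.1% of siNT (log2 -0.23, 95% interval -0.34 to -0.12, adjusted p = 0.0015), and under library totals its log2 value was -0.13 and no longer called (adjusted p = 0.0513). Nkd1, a Dishevelled antagonist and Wnt target, was at 1.16 and 2.17 in siNT and 3.34 and 3.17 in siCnot1 (log2 0.97, 95% interval 0.34 to 1.6, adjusted p = 0.0184).

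Some of these calls were lost in other settings. Apc lost its call without siNT replicate 1 or siCnot1 replicate 1 (adjusted p = 0.116 and 0.0895, range over alternatives 4.52e-05 to 0.116) and when low counts were not filtered (0.0563). Ctnnb1 lost it without siNT replicate 1, siNT replicate 2 or siCnot1 replicate 1 (0.0501, 0.0722 and 0.0568, range 2.39e-06 to 0.0722). Nkd1 lost it without siNT replicate 1, siCnot1 replicate 1 or siCnot1 replicate 2 (0.223, 0.147 and 0.123, range 0.00966 to 0.223) with DESeq2 (0.0933) and without a filter (0.138).

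Of the TCF/LEF factors only Tcf7l1 passed the test. Tcf7l1, the repressor of the family in ESCs, was at 16.6 and 17.2 normalized CPM in siNT and 21.8 and 20.4 in siCnot1 (log2 0.32, 95% interval 0.09 to 0.55, adjusted p = 0.0306). It lost that call without any of the 4 libraries (0.184, 0.128, 0.234 and 0.0997, range over alternatives 0.00501 to 0.234) with DESeq2 (0.118) and when low counts were not filtered (0.101). Tcf7 was at 55.7 and 60.7 in siNT and 55.4 and 52.5 in siCnot1 (log2 -0.11, adjusted p = 0.335). Its exons share 339 bases with Skp1 on the opposite strand, whose counts went from 20602 to 15426. Tcf7l2 (log2 -0.34, adjusted p = 0.146) and Lef1 (log2 0.56, adjusted p = 0.305) overlapped between groups.

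Feedback targets of the pathway were called in part. Of 10 such genes (Axin2, Sp5, Nkd1, Lef1, Tcf7, Notum, Rnf43, Znrf3, Lgr5 and Dkk1), 8 were tested, 3 rose (Axin2, Notum and Nkd1), 0 fell and 5 did not pass the test. Of all tested genes, 15% rose and 14.7% fell. Sp5, a transcription factor that responds strongly to Wnt in ESCs, was at 1.51 and 1.02 normalized CPM in siNT and 0.776 and 0.598 in siCnot1, with both siCnot1 libraries below both siNT libraries and an adjusted p of 0.154 (log2 -0.88, 95% interval -1.81 to 0.06). The median log2 value over the 8 tested genes was 0.73, against 0.0084 over all tested genes. Rnf43 (log2 1.61), one of the 8, was tested only through its siCnot1 counts.

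**Figure D4:**
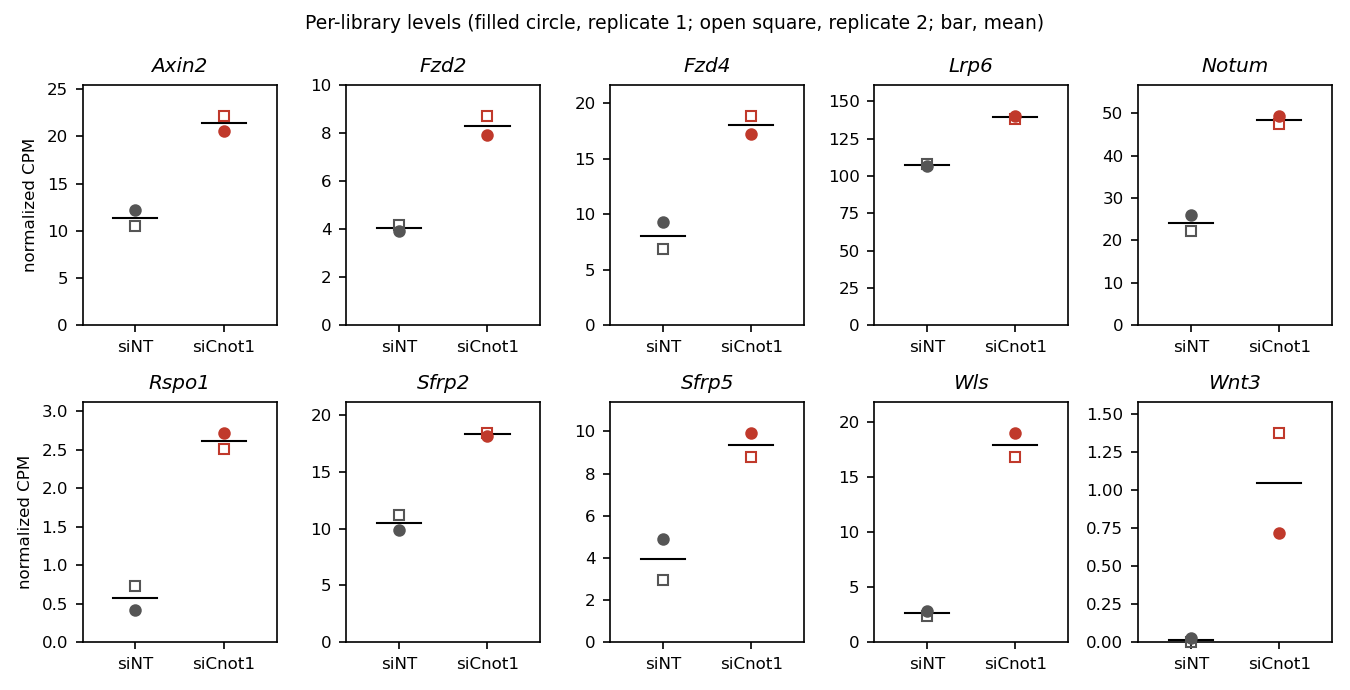
Normalized CPM (y axis, from 0) of the 10 Wnt pathway genes whose calls held in every alternative in which they were tested, with a filled circle for replicate 1, an open square for replicate 2 and a bar for the mean of each group. In each panel both siCnot1 points lie above both siNT points, by 6.79-fold for Wls and 1.30-fold for Lrp6. The genes were chosen by their calls, so this separation is no further test. Wnt3 is at or near 0 in siNT and was tested only through its siCnot1 counts.

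Other genes of the pathway, in lists of 82 genes written beside the 63, were called in both directions. Of 74 tested, 20 rose and 20 fell, against 15% and 14.7% of all tested genes, and the median log2 fold change was -0.013. Genes named beyond the 3 with the smallest adjusted p in each list were chosen after their values were seen. Planar polarity and alternative receptor genes rose in 7 of 15 and fell in 1. Ptk7, a co-receptor in planar polarity, was at 140 and 136 normalized CPM in siNT and 208 and 198 in siCnot1 (log2 0.55, adjusted p = 2.4e-07). Vangl2, a core planar polarity protein, was at log2 0.68 (adjusted p = 4.01e-06), whereas its paralogue Vangl1 fell (log2 -0.55, adjusted p = 4.28e-06). Among 8 tested extracellular modulators Kremen1 (log2 0.51), Kremen2 (1.56) and Apcdd1 (0.97) rose (adjusted p = 0.000425, 0.00752 and 0.000293) and Gpc4 fell (log2 -0.17, adjusted p = 0.038), a call not made under upper-quartile scaling or library totals. Cytoplasmic transducers, where Csnk1g1 and Dvl1 rose (log2 0.31 each) and Csnk1e fell (-0.32), gave 4 higher and 3 lower of 15, and 5 and 1 under library totals. Nuclear co-factors gave 5 and 5 of 14, and 5 and 3 under library totals, with Bcl9, which links β-catenin to Pygopus, at log2 0.53 (adjusted p = 0.00013) and the co-repressor Tle3 at -0.54 (adjusted p = 8.86e-07).

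Genes that move Wls protein through the cell fell in 4 of 7 and rose in 0, with 2 lower and 1 higher under library totals. All 7 lay above 30 mean normalized CPM, the class in which 29.7% of all tested genes fell. Tmed2, a cargo receptor of early secretory vesicles, was at 108 and 106 normalized CPM in siNT and 64.4 and 58.5 in siCnot1 (log2 -0.79, adjusted p = 1.44e-08). Snx3 (log2 -0.32, adjusted p = 0.000451) and the retromer subunits Vps26a (-0.27, adjusted p = 0.00438) and Vps35 (-0.21, adjusted p = 0.00967), which return Wls from endosomes, were lower by less. Other Wnt targets in ESCs and gastrulation gave 1 higher and 6 lower of 15 tested, and 3 higher and 2 lower under library totals. The 6 lower genes all lay in that same class above 30 mean normalized CPM. Bambi rose (log2 0.40, adjusted p = 0.0238), and Cdh1 (-0.37, adjusted p = 1.36e-05), Tbx3 (-0.33, adjusted p = 9.25e-05) and Esrrb (-0.19, adjusted p = 0.0102) were among those that fell. T (brachyury), a target that marks the primitive streak, had no counts in any library.

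Some markers of other cell types were called, in lists of at most 6 genes. Among all tested genes 15% rose and 14.7% fell, and so few calls in short lists say little about cell types. Of 6 primitive endoderm markers 2 rose, Dab2 (log2 1.02, adjusted p = 0.000139) and Pdgfra (1.02, adjusted p = 0.000436), and the list summed to 14.8 and 12.6 normalized CPM in siNT and 22.9 and 22.1 in siCnot1. Gata4, Gata6, Sox17 and Sox7, which define that lineage, did not pass the test and none was above 3.38 normalized CPM in any library. Fibroblast markers were listed for feeder cells, although the methods of the study name gelatin and no feeder layer. They rose in 2 of 4 tested, Col1a1 (log2 1.4, adjusted p = 0.000541) and Twist1 (0.83, adjusted p = 0.000963), while Thy1 (0.01) and Col1a2 (1.06) did not pass the test. The list summed to 13.5 and 16.9 in siNT and 21.3 in each siCnot1 library. The neuronal tubulin Tubb3 rose (log2 0.77, adjusted p = 1.34e-08) and Pax6 fell (-0.80, adjusted p = 0.015) among 4 neural markers, and Sox1 (-0.36) and Nes (0.09) did not pass the test. The list summed to 92.6 and 97.0 in siNT and 138 and 136 in siCnot1, of which Tubb3 alone gave 61.6 and 65.2 in siNT and 108 in each siCnot1 library. Primitive streak markers were not called in any of 3 tested genes, with sums of 19.9 and 20.04 in siNT and 23.5 and 19.2 in siCnot1. Trophectoderm markers fell in 2 of 4 (Krt8 and Tfap2c) and summed to 73.5 and 76.7 in siNT and 51.0 and 50.6 in siCnot1. ESC markers fell in 4 of 6 (Pou5f1, Nanog, Sox2 and Esrrb, log2 -0.24 to -0.17), and in 1 of 6 under library totals. All 6 lay above 30 mean normalized CPM, the class in which 29.7% of all tested genes fell. The part of these cell type markers in the values of the Wnt pathway genes was not tested.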

How the data were processed

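Poly(A)+ RNA-seq of 2 siNT and 2 siCnot1 samples was analysed, grouped by sample titles. The authors deposited raw counts per gene, not normalized or pooled, with the summed exon length of each gene. The submitters' processing notes name fastp 0.19.4, HISAT2 2.2.1, DESeq2 1.40.2 and mm10, while the deposited gene positions are not those of GRCm38 and were taken as GRCm39. The counting program and its use of strand are not given in the sources used here. Sequence positions are GRCm38, joined by gene symbol or transcript only.

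Counts were tested in R 4.3.3 with edgeR 4.0.16 (TMM scaling, filterByExpr with a minimum count of 10, quasi-likelihood test, condition as the only term, Benjamini-Hochberg adjustment over 18144 genes). The standard error was taken as the log2 fold change over the square root of F. FPKM is normalized CPM per kb of exon, and union exon length can lower it for genes with long unused exons. The scripts were tested on simulated data. Alternatives were DESeq2 size factors, upper-quartile scaling or library totals, no filter or a filter of 1 CPM (2 libraries or more), the tools DESeq2 1.42.0 and limma-voom (limma 3.58.1), the replicate number as a block, and each library left out, the lone sample of a group then being assumed to vary like the other group.

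The genes and lists were chosen with earlier results of these data known. Named genes were Cnot1, every Wnt pathway gene with an adjusted p under 0.05, a fixed set of core pathway genes, the most abundant Wnt, Fzd, Sfrp and Rspo gene in siNT, and up to 3 genes with the smallest adjusted p in each further list. Of the 11 secreted inhibitors listed, Sfrp3 is not a symbol in the table. With 32135824 to 32557440 counts per library, 3 counts were taken as the floor.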

Additional observations from a re-analysis of the deposited data

How the results depend on the processing

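The 25 higher Wnt pathway genes became 13 without a filter on low counts and 11 to 20 when 1 library was left out, 11 without siNT replicate 1. The 3 lower genes became 1 without a filter and 0 to 3 with a library left out, 0 without either siNT library. At the study thresholds the 13 higher became 8 with at least 1 CPM in 2 libraries and 9 to 15 with a library left out, and the 2 lower became 1 to 3. The median log2 fold change of 0.58 was 0.68 under library totals, without a filter and with DESeq2, 0.50 with at least 1 CPM in 2 libraries, and 0.54 to 0.67 with a library left out. The 20 higher and 20 lower other pathway genes became 12 and 10 without a filter, 7 to 11 and 8 to 11 with a library left out, and 9 lower under library totals. Over all genes, 2719 higher and 2668 lower became 1303 and 1450 without a filter, 743 to 1439 and 871 to 1463 with a library left out, and 1563 lower under library totals. The cause was not tested beyond the fewer samples or other genes tested that these settings entail.

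Of 28 called genes, 10 kept their call under every alternative in which they were tested (Axin2, Fzd2, Fzd4, Lrp6, Notum, Rspo1, Sfrp2, Sfrp5, Wls and Wnt3). Among these, Wnt3 was tested only through its siCnot1 counts. The other 18 lost their call under at least 1 alternative while keeping their direction. Without a filter 14 of these calls were lost. With DESeq2, Nkd1, Tcf7l1 and Wnt5a lost theirs, and Rspo2, Wnt8b and Rnf43 had no adjusted p. Under library totals 5 genes gained a call (Fzd6, Fzd7, Sfrp1, Wnt5b and Znrf3). Fzd7 also gained it under upper-quartile scaling and the 1 CPM filter, and Fzd6 without siCnot1 replicate 1. Direction was reversed for Fzd5 under library totals (log2 0.0708), and for Axin1 without siNT replicate 2 (-0.032) or siCnot1 replicate 2 (-0.055), its range with a library left out being -0.055 to 0.070. Neither gene was called in any setting. Cnot1 stayed between -2.39 and -2.23.

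The titles give both groups replicate numbers 1 and 2. The correlation between libraries of the same number, each taken relative to its group mean, was 0.0109, so the numbers were not taken to pair the samples. With the number as a block, 24 Wnt pathway genes were higher and 3 lower (median log2 value 0.63), and Wnt5a lost its call (adjusted p = 0.0667). Genes near the floor, such as Wnt3, Wnt8b and Rspo2, are limited by depth, and the 13 untested genes had at most 16 counts in any library.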
